A study of Mus musculus with 11 samples.

Results

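The samples labelled Knockout (beta-sarcoglycan null) were set against C2C12, and the comparison uses 8 of the 11 arrays of the series. The knockout-labelled arrays hold RNA of cardiac mesoangioblasts, vessel-associated progenitor cells, grown from atrium, ventricle or aorta of dystrophic mice. C2C12 is an established mouse myoblast line that fuses into muscle fibres in culture, and the study used it as the positive control for myogenic differentiation. Arrays of KO ventricle, KO aorta and C2C12 that were repeated on slides 1 and 3 differed by less than the noise between repeated spots and were averaged. This left 3 KO-labelled samples (ventricle, aorta and atrium) and 2 C2C12 samples (C2C12 1, the mean of the arrays on slides 1 and 3, and C2C12 2 on slide 2), or 5 of the 8 samples of the series. The 3 WT samples (atrium, ventricle and aorta) entered only to estimate each gene's spread. Per the labels, the dystrophic progenitors turn into skeletal muscle fibres whereas the wild-type ones turn into cardiomyocytes, so the comparison asks how far the former resemble a skeletal myoblast line. Strain, age, passage number and growth state at harvest are not given in the labels used here.

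Skeletal myoblasts are committed by MyoD and Myf5, divide, and then leave the cell cycle as myogenin switches on the contractile genes and the cells fuse. Developing fibres begin with embryonic and perinatal myosin heavy chains and later replace them with slow or fast adult ones. Beta-sarcoglycan is a membrane protein of the dystrophin-associated complex, which ties the fibre's cytoskeleton to the surrounding matrix, and its loss causes a limb-girdle muscular dystrophy with heart disease.

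Levels are log2 signals in which 0 stands for the array's own 75th percentile, and a difference is KO-labelled mean minus C2C12 mean on the log2 scale. On each array 49 to 62% of probes were well above background, a spot signal clearly brighter than its local background. Precision is limited by how few arrays there are. The design text speaks of biological triplicates, but the labels do not tie arrays to mice or cultures, so p-values measure only the sample-to-sample spread, and that spread may be technical. In the KO-labelled group it is also a spread between regions of the heart. Within-group comparisons of bright probes gave log2 differences of 0.610 to 0.713 times spot noise for the averaged pairs, against 2.97 to 4.35 times for the other KO-labelled pairs and 3.04 to 3.11 times for C2C12 on slide 2 against the other C2C12 arrays.

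Sgcb, the gene for beta-sarcoglycan, was read by 3 probes. The brightest of them, at 73914512 to 73914571 on mm8 chromosome 5, gave 2.99 (ventricle), 2.34 (aorta) and 2.64 (atrium), against 2.41 in C2C12 1 and 2.82 in C2C12 2. The groups overlapped, and the difference was 0.04 (SE 0.24, limma adjusted p = 0.982). Another probe (73913028 to 73913087) differed by -0.28 (adjusted p = 0.779), and the third (73923289 to 73923348) stayed at background on all arrays. Lower Sgcb was not seen in the samples labelled null. The deleted part is not stated, and a probe that lies outside it checks nothing, so the values leave the label unchecked. Hence the term KO-labelled is used throughout, and all directions depend on that label.

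The 2 sets of cells had much of their expressed genome in common. Of 27567 genes on the array, 13106 (47.5%) were well above background on every KO-labelled and every C2C12 array and 10330 (37.5%) on none of them. Only 23 genes (0.0834%) were above background on every KO-labelled array and no C2C12 array, and 75 (0.272%) the other way round. Across genes, which are not independent replicates, a KO-labelled and a C2C12 sample correlated at r = 0.962 to 0.972, with 1424 to 1748 of 15134 genes at least 2-fold apart. Pairs of KO-labelled samples gave r = 0.976 to 0.988 and 827 to 1236 such genes, and the C2C12 samples with each other at 0.988 with 805.

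Of the 15134 genes tested, 106 (0.700%) were higher and 96 (0.634%) lower in the KO-labelled samples at an adjusted p under 0.05 (limma, Benjamini-Hochberg). Together these were 1.33% of the genes tested. At that share a short gene list can be expected to hold 0 calls. A count of 0 in a list below is a description and says little about its members. The sizes of the higher calls ran from 0.75 to 5.66 with a median of 2.53, and those of the lower calls from 0.77 to 8.60 with a median of 2.83. All 202 called genes kept the KO-labelled samples apart from the C2C12 samples, as did 5823 genes (38.5%) in all, 2689 of them (17.8%) with KO-labelled samples above and 3134 (20.7%) below. On at least 1 side the called genes were often dim: in 31 of the higher and 33 of the lower calls no array of the dimmer group was well above background. For those the difference is a bound, written "at least N-fold", which sets the brighter group's mean against the dimmest signal that counts as above background. They passed the filter on dim probes only through the brighter group. Their other readings lie at background, so the SE and p of such a gene do not measure the spread of its level in the dimmer group. The same fit called 4725 genes (31.2%) between the KO-labelled and WT samples, a comparison that shares the KO-labelled samples with this one.

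The calls depended on having both C2C12 samples in the fit, and an effect of the slide could not be told apart from this. C2C12 2 shared its slide with WT and with no KO-labelled array, and with the slide as a block the estimate becomes the KO-labelled mean minus C2C12 1. In that fit 25 genes (0.165%) were called, among them 24 of the 202. The slide-blocked fit is the same as leaving out C2C12 2, so its loss of calls does not measure an effect of the slide. In it the median difference was 2.81 for the 106 higher calls and -2.77 for the 96 lower ones. A single slide holds 1 C2C12 array, so a count of calls within 1 slide could show nothing. All 106 higher and all 96 lower calls kept their direction on slide 1 and on slide 3. Those arrays are also part of the main fit, so this is not a separate check. Leaving out C2C12 1 or C2C12 2 ended 186 of the 202 calls, and the 16 that stayed in every such fit were Myh4, Sfrp2, Gpc4, Hs6st2, Lgalsl, Ppfibp2 and the unnamed transcript BI100969 among the lower genes, and Sdr39u1, Sirpa, Mlf1, Gpat2, Coro2a, Slc16a7, Fsd1, BC061237 and 1700001F09Rik among the higher ones. A call named here that is not among these 16 was lost without 1 of the C2C12 samples.

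**Figure D1:**
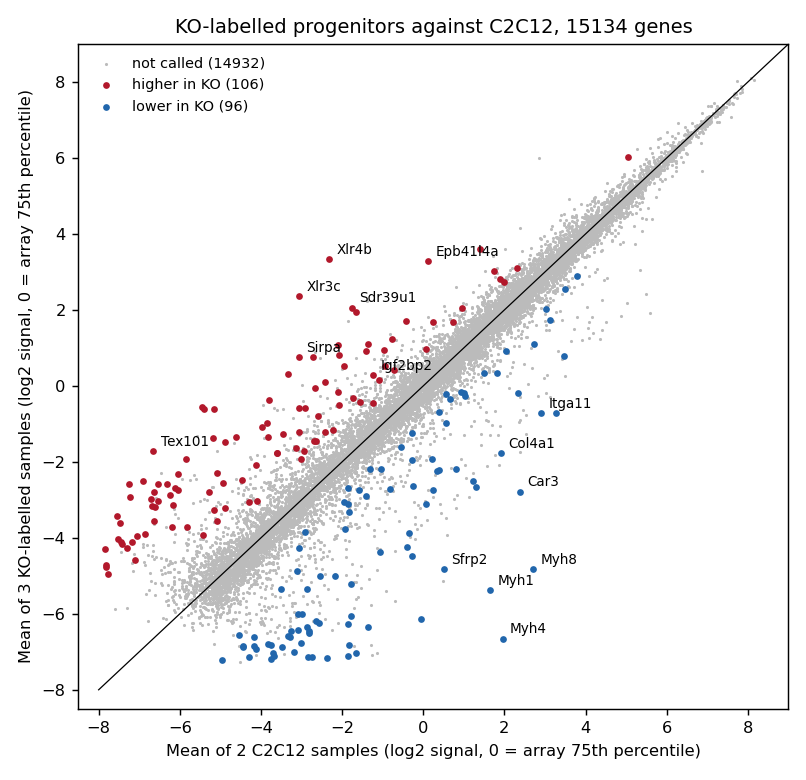
Each point is 1 of 15134 genes, with its mean over the 2 C2C12 samples on the x axis and its mean over the 3 KO-labelled samples on the y axis, both as log2 signal relative to the array's 75th percentile; the line marks equal levels. Red points are the 106 genes called higher and blue points the 96 called lower in the KO-labelled samples, and the blue points Myh4, Myh8 and Myh1 lie farthest below the line.

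Fast and perinatal myosin heavy chains were lower in the KO-labelled samples, and Myh4, Myh8 and Myh1 had the largest decreases, as read, of the 96 lower calls. These genes lie side by side in a cluster on chromosome 11, and 4 of its members were called lower: Myh4, Myh8, Myh1 and Myh2. Because all 4 moved together, the 250 bases before their starts are shown, read from RefSeq's promoter table (GRCm38.p6, plus strand of chromosome 11). Capitals mark the longest run of letters held by all 4.

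Myh2 (fast IIa myosin, chr11:67170777-67171026): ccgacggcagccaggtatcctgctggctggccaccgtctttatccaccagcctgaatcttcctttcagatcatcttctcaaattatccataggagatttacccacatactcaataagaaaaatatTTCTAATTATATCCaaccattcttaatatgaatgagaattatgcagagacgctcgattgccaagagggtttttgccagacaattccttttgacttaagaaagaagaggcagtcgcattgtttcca

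Myh1 (fast IIx myosin, chr11:67199852-67200101): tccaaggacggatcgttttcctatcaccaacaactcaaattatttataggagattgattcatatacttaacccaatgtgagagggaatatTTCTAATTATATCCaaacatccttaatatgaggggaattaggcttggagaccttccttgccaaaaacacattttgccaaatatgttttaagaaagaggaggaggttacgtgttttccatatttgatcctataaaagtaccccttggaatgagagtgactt

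Myh4 (fast IIb myosin, chr11:67237562-67237811): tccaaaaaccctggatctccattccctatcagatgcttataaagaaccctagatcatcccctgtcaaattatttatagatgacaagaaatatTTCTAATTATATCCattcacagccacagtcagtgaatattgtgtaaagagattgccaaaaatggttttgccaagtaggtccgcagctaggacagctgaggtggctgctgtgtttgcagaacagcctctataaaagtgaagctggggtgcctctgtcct

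Myh8 (perinatal myosin, chr11:67276874-67277123): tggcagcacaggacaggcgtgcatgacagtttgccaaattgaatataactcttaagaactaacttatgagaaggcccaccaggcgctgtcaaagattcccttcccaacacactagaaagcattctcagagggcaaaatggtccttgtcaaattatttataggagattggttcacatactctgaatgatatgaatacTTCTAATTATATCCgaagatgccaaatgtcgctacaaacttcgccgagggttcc

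The shared run, TTCTAATTATATCC, is 14 letters long and begins 125, 160, 158 and 54 bases before the start of Myh2, Myh1, Myh4 and Myh8. It was found after the 4 genes were seen to move together. On either strand it occurred in these 4 of 27025 promoter windows of the same length (0.0148%) and in no others. The E-box motif CANNTG, the letters bound by MyoD-type factors, occurred 0, 0, 2 and 1 times in the windows of Myh2, Myh1, Myh4 and Myh8, where 66.0% of all windows held at least 1 and 31.7% at least 2. A match is a description of the letters and not evidence of binding.

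Myh4, the fast IIb myosin of the most powerful fibres (probe at mm8 chromosome 11, 67076527 to 67076586), read -6.14 (ventricle), -7.24 (aorta) and -6.58 (atrium). In C2C12 it read 1.37 and 2.53. None of the 5 KO-labelled arrays read Myh4 well above background and it was bright in both C2C12 samples, so it was at least 120-fold lower. The difference as read was -8.60 (SE 0.56, limma adjusted p = 0.00183), and -8.03 under the slide block. Myh4 passed the filter through the C2C12 arrays alone, so this p does not measure a spread of its level among the KO-labelled samples. A second Myh4 probe was likewise above background on all 3 C2C12 arrays and on 0 of the 5 KO-labelled ones.

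Myh8, the perinatal myosin, read -2.52, -7.02 and -4.94 in KO ventricle, aorta and atrium and 2.92 and 2.50 in C2C12. Myh1, the fast IIx myosin, read -3.80, -7.31 and -5.04 against 2.45 and 0.84. For both genes 2 of the 5 KO-labelled arrays were above background, and the 3 KO-labelled samples lay below both C2C12 samples in a fixed order with ventricle highest and aorta lowest. The differences were -7.54 for Myh8 (SE 1.18, adjusted p = 0.0348) and -7.03 for Myh1 (SE 0.99, adjusted p = 0.0255), and the slide-blocked values were -7.75 (adjusted p = 0.188) and -7.84 (adjusted p = 0.104).

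Myh2, the fast IIa myosin, was dim throughout, at -7.51, -7.25 and -6.78 in the KO-labelled samples and -2.83 and -4.66 in C2C12, and was at least 2.32-fold lower (adjusted p = 0.0431). With normexp background correction its adjusted p was 0.847. The myosin genes are near-identical in parts, and how far each probe reads its neighbours was not tested.

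The early and slow myosins did not pass the test. Myh3, the embryonic myosin and the first to appear in new fibres, read 3.94 (ventricle), -1.13 (aorta) and 0.93 (atrium), against 5.37 and 3.32 in C2C12 (difference -3.1, adjusted p = 0.420). Myh7, the slow and cardiac beta myosin, read 1.38, -3.74 and -1.40 against 3.08 and 1.96 (difference -3.78, adjusted p = 0.284). In Myh3 the KO ventricle sample lay between the C2C12 samples, while the other KO-labelled samples lay below both.

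The wider contractile programme had the same layout. Of 30 tested sarcomere genes 4 were called lower, the myosins above, and none higher, with a median difference of -2.88 against -0.03 over all genes tested. Acta1, skeletal alpha-actin, read 4.38 (ventricle), 1.75 (aorta) and 3.0 (atrium), and 6.03 and 4.64 in C2C12 (difference -2.29, adjusted p = 0.407). Myl1, a fast myosin light chain, read 4.52, 0.31 and 2.40 against 5.93 and 5.04 (difference -3.07, adjusted p = 0.298). For these 2 genes every KO-labelled sample lay below both C2C12 samples, and the spread over the KO-labelled samples was as large as the gap between the groups.

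In most sarcomere genes the KO-labelled samples stood in the same order. In 27 of the 30 sarcomere genes (90%) the order was ventricle above atrium above aorta, an order that 2465 of all 15134 genes (16.3%) had. The median sarcomere gene stood 0.72 below the C2C12 mean in KO ventricle, 3.21 below in KO atrium and 4.87 below in KO aorta, and was 1.5 higher in C2C12 1 than in C2C12 2. In KO ventricle 14 of the 30 genes reached the level of the lower C2C12 sample, against 3 in KO atrium and 2 in KO aorta. Each region is 1 sample and had 1 position on its slides, so region, culture and array position cannot be told apart. The median of 27 cell cycle genes also differed in KO ventricle, at -0.39 from the C2C12 mean against 0.11 in KO atrium and 0.01 in KO aorta, and its part in the order was not tested.

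**Figure D2:**
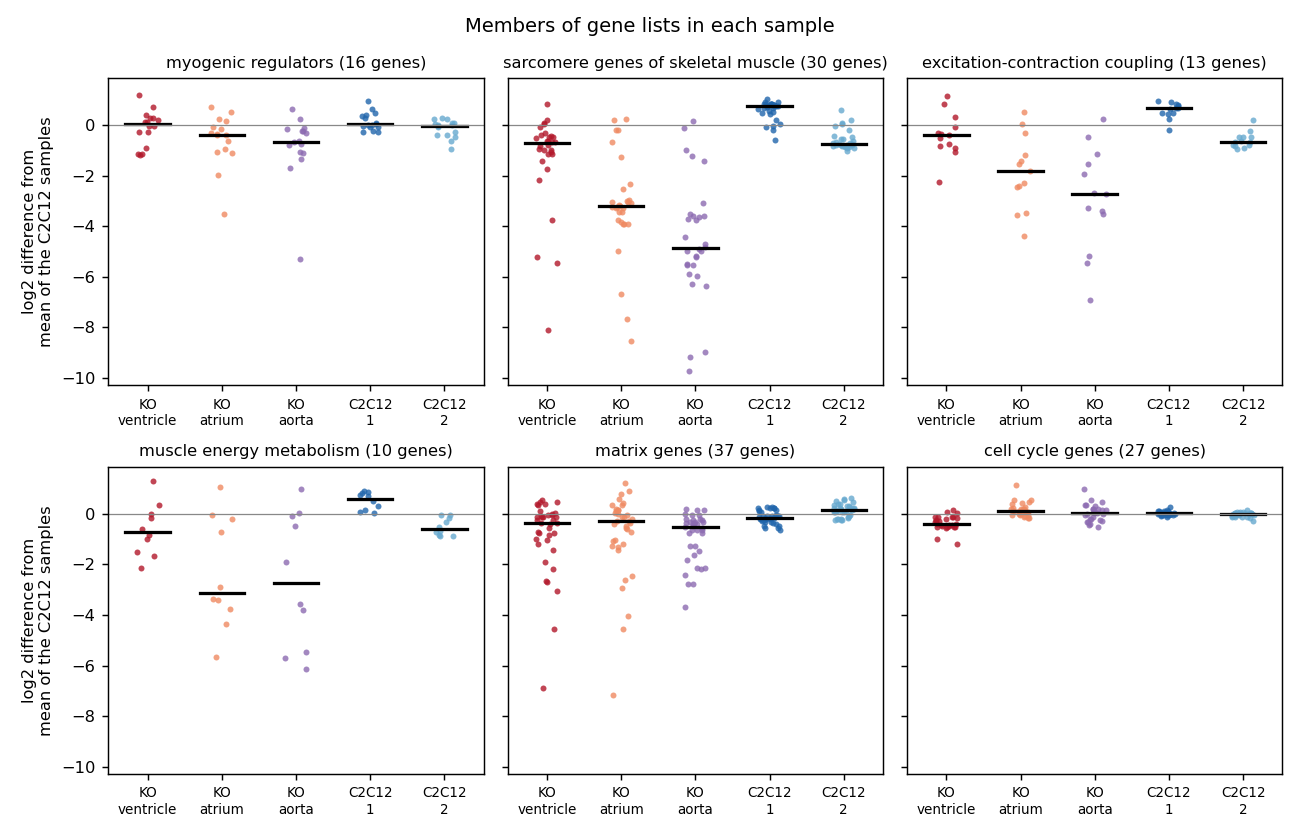
Each panel shows the tested members of a gene list as points, with the sample on the x axis and the log2 difference from the mean of the C2C12 samples on the y axis; black bars are medians. For sarcomere genes the medians step down from KO ventricle (-0.72) to KO atrium (-3.21) and KO aorta (-4.87), while cell cycle genes stay within 0.39 of the C2C12 mean in each sample's median.

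Genes that couple excitation to contraction had the same order in 12 of 13 cases (92.3%) and a median difference of -1.51. Casq1, the calcium store protein of fast fibres, was the 1 member called, at least 1.42-fold lower (adjusted p = 0.026), at -6.71, -7.17 and -6.76 in the KO-labelled samples and -4.64 and -4.26 in C2C12. Ryr1, the calcium release channel of skeletal muscle, read -0.18, -3.49 and -2.56 in KO ventricle, aorta and atrium against 0.68 and -0.86 (difference -1.99, adjusted p = 0.456), so KO ventricle lay between the C2C12 samples. None of the 10 tested genes of muscle energy metabolism was called, although their median was -2.40, and Ckm, muscle creatine kinase, differed by -3.61 (adjusted p = 0.316). Beside the genes on these lists, Car3, the carbonic anhydrase of slow fibres, was called lower with -2.15, -3.21 and -3.01 in KO ventricle, aorta and atrium against 2.14 and 2.61 in C2C12 (difference -5.16, SE 0.65, adjusted p = 0.0182). Lmod1, a leiomodin that seeds actin filaments in smooth muscle, was lower by 3.73 on the log2 scale (adjusted p = 0.0480).

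The regulators that commit cells to the muscle lineage stood at like levels. Myod1 read 3.05 (ventricle), 2.09 (aorta) and 2.82 (atrium), and 2.95 and 1.70 in C2C12 (difference 0.33, SE 0.43, adjusted p = 0.849). Myf5, which commits cells with MyoD, differed by -0.53 (SE 0.50, adjusted p = 0.767) and Pax3, a factor of embryonic muscle precursors, by 0.07 (SE 0.24, adjusted p = 0.962). In these 3 genes the groups overlapped. Myog, which starts differentiation, read 4.61, -0.43 and 1.37 in KO ventricle, aorta and atrium against 5.82 and 3.94. The range over the KO-labelled samples was wide, and its difference of -3.03 (SE 1.33) had an adjusted p of 0.406. Of the 16 tested regulators none was called, and the median was -0.38. A p that misses the threshold does not show equal levels.

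Surface and fusion genes of myoblasts were likewise not called, 0 of 16, with a median of -0.13. Cdh15, the cadherin by which myoblasts hold on to each other, read 5.54, 4.10 and 4.95 in KO ventricle, aorta and atrium and 4.36 and 4.05 in C2C12 (difference 0.66, SE 0.38, adjusted p = 0.556), with a WT mean of -6.25. Ncam1, an adhesion molecule of myoblasts and nerve, differed by 0.31 (adjusted p = 0.835). Mymk, the membrane protein that drives fusion, read 0.80, -2.48 and -1.40 against 2.68 and 0.70 (difference -2.72, adjusted p = 0.288). Cdh15 and Ncam1 were therefore bright in all 5 samples, while Mymk ran in the order of the sarcomere genes.

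At the neuromuscular junction 0 of 10 genes were called, with a median of -0.13. Chrna1, the alpha subunit of the acetylcholine receptor, read 5.73, 3.93 and 5.34 in KO ventricle, aorta and atrium against 5.61 and 4.55 (difference -0.08, adjusted p = 0.991). Chrng, the fetal gamma subunit, read 2.22, -2.40 and -0.39 against 3.82 and 2.21. The groups overlapped in both genes, in Chrna1 with KO ventricle above both C2C12 samples and KO atrium between them, and Chrng was named after its values were seen.

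None of the 18 tested genes of the sarcoglycan-dystrophin complex was called, and the median was -0.04. Sgca, the alpha subunit found in striated muscle, read 0.00 (ventricle), -1.51 (aorta) and -1.19 (atrium), and 1.07 and -0.15 in C2C12 (difference -1.36, SE 0.58, adjusted p = 0.389). Sgce, the broadly expressed epsilon subunit, differed by -0.13 (SE 0.58) and Sgcd, the delta subunit, by 0.22 (SE 0.19), neither of them called (adjusted p = 0.976 and 0.742). Sgca and Sgcb had ventricle highest and aorta lowest like the contractile genes, and Sgce and Sgcd did not.

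Markers of the heart gave no call. Of 12 tested cardiac transcription factors 0 were called, and Tbx5 and Hand2, which pattern the heart, were not above background on any KO-labelled or C2C12 array. Nkx2-5, an early cardiac factor, read -0.35, -1.06 and -1.38 in KO ventricle, aorta and atrium against -2.64 and -2.41. All 3 KO-labelled samples lay above both C2C12 samples, and the difference of 1.59 (SE 0.30) had an adjusted p of 0.0646. Myh6, the adult cardiac alpha myosin, read -3.46, -7.01 and -6.58 against -2.15 and -2.97 (adjusted p = 0.253), and Tnni3, cardiac troponin I, differed by 0.04 (adjusted p = 0.989). Actc1 and Tnnt2, cardiac proteins that embryonic skeletal muscle also makes, read 4.66, 3.73 and 4.81 against 5.80 and 5.48, and 5.34, 4.24 and 4.74 against 5.61 and 4.50. Of 14 tested cardiomyocyte genes 0 were called, where 1.33% of all genes tested were, so the count says little about this list.

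Mesoangioblasts are recognised by markers they share with pericytes. Alpl, the alkaline phosphatase used to find such cells, was not above background on any KO-labelled or C2C12 array. Anpep (CD13) read 1.09, 1.82 and 0.92 in KO ventricle, aorta and atrium against 1.07 and 1.44, and Cspg4 (NG2) read 2.03, 2.45 and 2.54 against 2.35 and 2.38. Pdgfrb, a growth factor receptor of pericytes, read 3.63, 3.98 and 3.64 against 5.25 and 5.17, all 3 below both C2C12 samples (difference -1.46, SE 0.26, adjusted p = 0.0532). Of the 8 tested markers 0 were called, and only Pdgfrb kept the groups apart among the 3 given here. Among surface antigens of progenitors Ly6a (Sca-1) differed by -3.11 (SE 0.65, adjusted p = 0.0861) and Cd34 by 1.06 (SE 0.36, adjusted p = 0.282).

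Defining markers of other cell types were mostly not above background. Of 13 endothelial markers 2 could be tested and Pecam1, Cdh5 and Kdr were not above background in either group. Of 12 blood and macrophage markers 5 could be tested, without Ptprc and Adgre1. On every KO-labelled and C2C12 array 4 of the 12 (33.3%) were above background, where 47.5% of all genes were. Cd14, of this list, read 0.20, 0.85 and 0.18 in KO ventricle, aorta and atrium against 0.13 and 0.45 in C2C12. Of 10 epicardial and mesothelial markers 4 could be tested, without Tcf21. No gene of these 3 lists was called. Some single markers were above background on every array of both groups: Flt1, an endothelial VEGF receptor, read -0.24, 2.01 and 0.85 in KO ventricle, aorta and atrium against 1.88 and 1.29, and Msln, the mesothelial protein mesothelin, read 2.58, 2.73 and 1.02 against 1.84 and 1.90. Neural and glial markers had 0 of 6 called and a median of 0.12, with 3 genes above 0 and 3 below. The list thus had no common direction. Its 2 highest differences were those of Tubb3 and Stmn2. Tubb3, neuronal beta-tubulin, read 1.07, 1.39 and 1.5 against 0.25 and 0.40 (difference 1.00, SE 0.18, adjusted p = 0.0576). Stmn2, the neuronal stathmin-2, read 1.23, 2.15 and 1.16 against 0.47 and 0.02. Cd14, Flt1, Msln and Stmn2 were named after their values were seen, and the part of such cells in the results was not tested.

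Sfrp2, a secreted antagonist of Wnt, was called lower in every fit that left out a sample. Its level (probe at mm8 chromosome 3, 83859869 to 83859928) was -4.97 (ventricle), -5.27 (aorta) and -4.24 (atrium), and 0.36 and 0.66 in C2C12. The groups were far apart (difference as read -5.33, SE 0.32, limma adjusted p = 0.00183, and -5.18 with adjusted p = 0.0311 under the slide block), although only 2 of the 5 KO-labelled arrays were above background. Dkk3, of the Dickkopf family of Wnt modulators, was at least 2.42-fold lower (adjusted p = 0.0058), at -7.50, -7.12 and -6.69 against -4.12 and -3.24. These were the 2 of 17 tested Wnt genes that were called in the list. Axin2, a common readout of Wnt activity, differed by 0.98 (SE 0.54, adjusted p = 0.518). Fzd3, a Wnt receptor that was not on the list, was higher by 1.82 (SE 0.15, adjusted p = 0.0034, and 1.90 with adjusted p = 0.0488 under the slide block), at -1.89, -1.84 and -1.58 against -3.67 and -3.52, and was named after its values were seen.

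**Figure D3:**
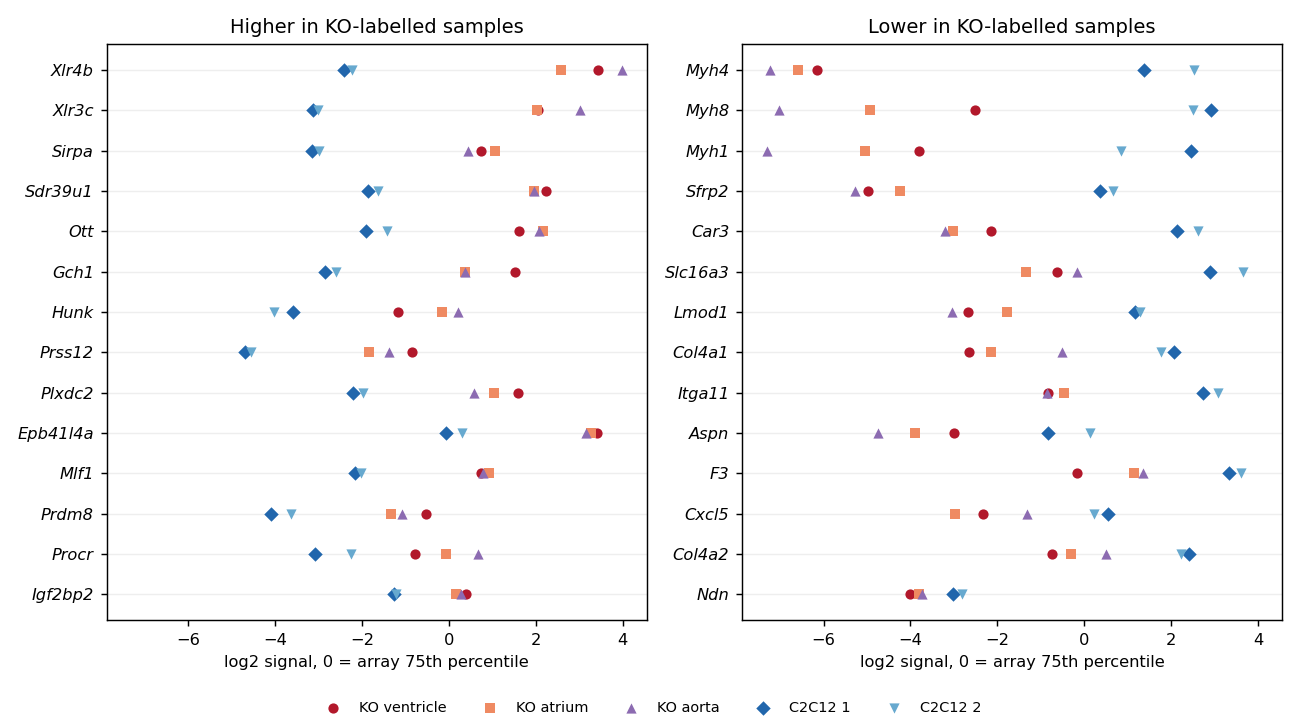
Levels of 28 called genes in each of the 5 samples, as log2 signal with 0 at the array's 75th percentile; the left panel holds genes called higher and the right panel genes called lower in the KO-labelled samples. Each symbol is 1 sample. In every gene shown the 3 KO-labelled samples lie on the same side of both C2C12 samples, as they do in all 202 called genes. Sdr39u1, for example, has 1.96 to 2.23 against -1.85 and -1.64.

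The basement membrane collagens Col4a1 and Col4a2, neighbours on chromosome 8 that are transcribed from a shared promoter region, were both lower. Col4a1 read -2.65 (ventricle), -0.52 (aorta) and -2.14 (atrium) against 2.07 and 1.76 in C2C12 (difference -3.69, SE 0.56, limma adjusted p = 0.0314, and -3.84 with adjusted p = 0.172 under the slide block). Col4a2 read -0.74, 0.49 and -0.31 against 2.42 and 2.24 (difference -2.51, SE 0.33, adjusted p = 0.0206, and -2.61 with adjusted p = 0.118 under the slide block). In both genes KO aorta was the highest KO-labelled sample and still below both C2C12 samples, and a second Col4a1 probe differed by -3.26 (adjusted p = 0.0375).

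The rest of the matrix list was mostly not called. The 2 collagens were the only calls among 37 tested matrix genes, 29 of which lay below 0, with a median of -0.30. Fibrillar collagens were not called. The brightest Col1a1 probe read 6.22, 6.17 and 6.21 in KO ventricle, aorta and atrium against 6.17 and 6.27 (difference -0.02, SE 0.15, adjusted p = 0.987), and the other 2 Col1a1 probes differed by -0.60 (adjusted p = 0.385) and -0.64 (adjusted p = 0.630). Col3a1 differed by -0.21 (SE 0.51), and by -0.74 (adjusted p = 0.645) in another probe. Dcn, the proteoglycan decorin, read 0.19, -1.13 and -2.92 against 1.87 and 1.41 (difference -2.92, adjusted p = 0.379). Tgfbi, a matrix protein induced by TGF-beta, had the largest difference of the list and was named after its values were seen, at -6.40, -2.30 and -6.66 against 0.41 and 0.56. All 3 KO-labelled samples lay below both C2C12 samples, but the aorta stood more than 4 above the others and the adjusted p was 0.0903. Itga11, an integrin that binds collagen, was called lower with -0.83, -0.85 and -0.47 against 2.73 and 3.08 (difference -3.62, SE 0.34, adjusted p = 0.0058). Aspn, the proteoglycan asporin, was called lower by 3.51 on the log2 scale (adjusted p = 0.0414), and Sdc3, the membrane proteoglycan syndecan-3, by 2.57 (adjusted p = 0.0486). A second Sdc3 probe, also above background on all arrays of both groups, differed by -0.41 (adjusted p = 0.481). Gpc4, a glypican of the cell surface, fell at least 8.63-fold (adjusted p = 0.00183) and Hs6st2, which sulfates heparan chains, at least 4.64-fold (adjusted p = 0.00202).

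Several secreted or surface signals were lower. Of 18 tested chemokines and cytokines 2 were called, with a median of -1.01. Ccl8, a monocyte attractant, differed by -2.83 (SE 0.44, adjusted p = 0.0345) with 2 of 5 KO-labelled arrays above background. Cxcl5, a neutrophil attractant, read -2.34, -1.33 and -2.98 in KO ventricle, aorta and atrium against 0.55 and 0.22 (difference -2.60, SE 0.43, adjusted p = 0.0434). Both had all 3 KO-labelled samples below both C2C12 samples, as every gene called lower did. Ccl2, which was not called, overlapped, at 0.55, 3.65 and 2.59 against 5.19 and 3.65 (adjusted p = 0.368). F3, tissue factor, the trigger of clotting, read -0.16, 1.35 and 1.15 against 3.32 and 3.62 (difference -2.69, adjusted p = 0.0445).

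Further called genes had varied roles. Slc16a3, which carries lactate out of glycolytic cells, read -0.62, -0.17 and -1.34 in KO ventricle, aorta and atrium and 2.89 and 3.66 in C2C12, with all KO-labelled arrays above background (difference -3.99, SE 0.38, adjusted p = 0.00583). Its relative Slc16a7, which favours lactate and pyruvate uptake, went the other way, at least 5.55-fold higher (adjusted p = 0.00202). Ripk3, a kinase of necroptosis, was at least 12-fold lower at -6.67, -5.55 and -6.81 against -1.47 and -1.27 (adjusted p = 0.00344), with a WT mean of 3.50. Psmb8, an immunoproteasome subunit and the 1 gene called of 9 tested for antigen presentation, fell at least 4.42-fold (adjusted p = 0.0058). Alx1, a homeobox factor of craniofacial mesenchyme, was at least 8.69-fold lower (adjusted p = 0.00283). It was above background on 0 of the KO-labelled arrays, so this p does not measure a spread of its level there. With normexp background correction the Alx1 difference was -1.93 and was not called (limma adjusted p = 0.179).

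Growth factor pathways otherwise gave few calls. None of 25 tested TGF-beta and BMP genes was called although 23 had a difference below 0 (median -0.39), and none of 11 Notch genes (median -0.10). Fst, the myostatin antagonist follistatin, read -2.07, -4.00 and -2.24 against -0.44 and -1.47 (difference -1.82, adjusted p = 0.307). In the IGF axis Igf2bp2, an RNA-binding protein of proliferating myoblasts, was the 1 call among 11, at 0.40, 0.27 and 0.17 in KO ventricle, aorta and atrium against -1.26 and -1.20. It was higher by 1.51 (SE 0.13, adjusted p = 0.0047, and 1.54 with adjusted p = 0.0525 under the slide block). Igf2, the growth factor that C2C12 cells make as they differentiate, read 3.96, 0.01 and 1.07 against 5.04 and 3.12 (difference -2.40, SE 2.03, adjusted p = 0.725), again with ventricle highest. Ndn, the imprinted gene for necdin, was called lower by 0.94 on the log2 scale (SE 0.16, adjusted p = 0.0444), and it was the 1 call among 8 imprinted genes.

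Among the genes higher in the KO-labelled samples, 2 members of the X-linked lymphocyte-regulated family led. Xlr4b (probe at mm8 chromosome X, 69475117 to 69475173) read 3.44 (ventricle), 4.0 (aorta) and 2.58 (atrium), and -2.40 and -2.23 in C2C12, with a WT mean of -6.81. Xlr3c (69507662 to 69507721) read 2.05, 3.02 and 2.03 against -3.12 and -3.00. Both were bright in all 3 KO-labelled samples and well apart from C2C12, with differences of 5.66 (SE 0.48, limma adjusted p = 0.00425, slide-blocked adjusted p = 0.0522) and 5.42 (SE 0.42, adjusted p = 0.00283, slide-blocked adjusted p = 0.0488). Copies of this family are near-identical, so which copy was read is uncertain. The other 2 Xlr4b probes were above background on 5 and 4 of the KO-labelled arrays and on no C2C12 array, with KO atrium lowest at -3.81 and -5.32, and were not called (adjusted p = 0.0665 and 0.151). Xlr itself differed by 0.38 (adjusted p = 0.453). Ott, a multicopy X-linked gene expressed in ovary and testis, read 1.62, 2.08 and 2.17 against -1.91 and -1.42 (adjusted p = 0.0215). Tex101, a germ cell surface protein, was at least 14.1-fold higher (adjusted p = 0.0215), at -3.12, -0.82 and -1.19 against -7.06 and -6.24. Gpat2, an acyltransferase expressed in testis, was higher by 4.54 (SE 0.31, adjusted p = 0.00202).

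The smallest adjusted p-values belonged to Sdr39u1 and 1700001F09Rik. Sdr39u1, of the short-chain dehydrogenase family (mm8 chromosome 14, 54851390 to 54851449), read 2.23, 1.96 and 1.97 in KO ventricle, aorta and atrium and -1.85 and -1.64 in C2C12. The spread within each group was small beside the gap between them, and the difference was 3.80 (SE 0.15, limma adjusted p = 0.000268, and 3.91 with adjusted p = 0.00695 under the slide block). 1700001F09Rik (chromosome 14, 42222517 to 42222576), a transcript of unknown role, read -0.58, -0.48 and -0.77 against -5.67 and -5.16 (difference 4.80, SE 0.19, adjusted p = 0.000268), and lies in a multigene stretch described further on.

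Surface and signalling proteins were among the other higher genes. Sirpa, the receptor that takes the CD47 signal against phagocytosis, read 0.75, 0.43 and 1.07 against -3.14 and -2.98 (difference 3.81, SE 0.25, adjusted p = 0.00183), and 2 dimmer probes were above background on 4 and 5 of the 5 KO-labelled arrays and on 0 and 1 of the 3 C2C12 arrays. Mlf1, a myeloid leukemia factor, read 0.75, 0.78 and 0.92 against -2.15 and -2.03 (difference 2.91, SE 0.21, adjusted p = 0.00214). These genes were bright in all KO-labelled samples. Procr, the endothelial protein C receptor, read -0.78, 0.67 and -0.07 against -3.08 and -2.25 (difference 2.60, adjusted p = 0.0445). Gch1, which makes the cofactor tetrahydrobiopterin, was higher by 3.48 (adjusted p = 0.0118). Hunk, a kinase, was higher by 3.43 (adjusted p = 0.0119) and Plxdc2, a membrane protein with a plexin domain, by 3.17 (adjusted p = 0.0187). Epb41l4a, a membrane skeleton protein, read 3.41, 3.16 and 3.27 against -0.07 and 0.31 and so stood near the 75th percentile in C2C12 and well above it in the KO-labelled samples (difference 3.16, SE 0.48, adjusted p = 0.0312). Cxadr, the receptor for coxsackievirus and adenovirus that is present in the heart, was at least 7.74-fold higher (adjusted p = 0.0418). A second Cxadr probe differed by 3.46 and was not called (limma adjusted p = 0.103). Coro2a, an actin-binding coronin, was at least 12.1-fold higher (adjusted p = 0.00283), Klf8, a Kruppel-like factor, at least 8.14-fold (adjusted p = 0.0143) and Slitrk6, a neural membrane protein, at least 7.75-fold (adjusted p = 0.00574). A further Klf8 probe was above background in C2C12, so that bound holds for the chosen probe alone.

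Patterning genes gave no difference that passed the test. Of 38 HOX genes on the array 15 (39.5%) were above background on every KO-labelled and every C2C12 array and 17 (44.7%) on none of them. Over all genes these shares were 47.5% and 37.5%. The clusters differed in this: 8 of 11 Hoxa genes were on in both, 8 of 10 Hoxb genes and 8 of 9 Hoxd genes were off in both, and 5 of 8 Hoxc genes were on in both. No HOX gene was on in all arrays of 1 group and off in all of the other. Only 0.0834% of all genes were so in the KO-labelled group and 0.272% in C2C12. Of 17 tested HOX genes 0 were called, where 1.33% of all genes tested were, with a median of -0.06. Both counts of 0 therefore say little about these genes. Hoxa11, a gene of the limb and the posterior trunk, read 1.37, 1.62 and 1.74 in KO ventricle, aorta and atrium against 1.82 and 1.84 (difference -0.25, adjusted p = 0.848), with a WT mean of -7.10. Hoxc10, a gene of the lumbar region, read -0.08, 0.35 and 0.27 against 0.16 and 0.39, with a WT mean of -6.90. Both sets of cells thus had these posterior genes at like levels. The lowest difference of the list was that of Hoxc13, at -0.86, which did not pass the test.

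Genes of dividing cells gave no call. Of 27 cell cycle genes 0 were called and the median was -0.10. KO ventricle had a median of -0.39 from the C2C12 mean and 3 of the 27 genes at or above the lower C2C12 sample, where KO atrium had 0.11 and 22 genes and KO aorta 0.01 and 17. Mki67, present in dividing cells, read 4.36, 4.20 and 4.44 against 4.46 and 4.51. Cdkn2a and Cdkn2b, inhibitors encoded side by side on chromosome 4, were not above background on any KO-labelled or C2C12 array but were on 2 and 3 of the 3 WT arrays. Their neighbour Mtap was tested and differed by 0.84 without a call. Cdkn1a, the p21 inhibitor, read 3.24, 1.95 and 2.19 against 4.17 and 3.1 (difference -1.18, adjusted p = 0.760). Xist, the RNA of the inactive X chromosome, read 3.50, 3.38 and 2.76 in KO ventricle, aorta and atrium and 3.11 and 1.87 in C2C12, with a WT mean of -7.07. Of the 6 Y-linked transcripts of the list 5 were not above background on any array, and Zfy1 was above it on every KO-labelled and C2C12 array, at -4.44, -4.69 and -4.38 against -4.27 and -3.89. Interferon-stimulated genes (0 of 16), hypoxia genes (0 of 12), immediate early genes (0 of 14) and p53 targets with other cycle inhibitors (0 of 16) gave no call, and 11 housekeeping genes differed by -0.14 to 0.13.

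Not all of the spread among the KO-labelled samples ran with the contractile genes. Of the 10 genes with the widest range over the 3 samples among those above background on every KO-labelled array, Cav3, Mybph, Myh3, Myh7, Myog and the unnamed probe A_52_P1004880 had ventricle highest and aorta lowest. Cav3, the caveolin of muscle membranes, read 1.32 in ventricle, -4.54 in aorta and -2.02 in atrium against 3.01 and 1.74 in C2C12. The other 4 had aorta highest and ventricle lowest: Prl2c3, a proliferin hormone, read 0.55 in ventricle, 5.73 in aorta and 2.11 in atrium against 4.69 and 4.24, and its near-identical relative Prl2c5 read 0.69, 5.68 and 2.17. Isyna1, which makes inositol phosphate, read -3.35, 2.54 and 1.44 against 2.98 and 2.95, and Plac8 read -3.14, 3.50 and -0.29 against -3.57 and -2.42. None of the 10 passed the test against C2C12.

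Differences were also grouped along chromosomes, a pattern looked for after the values were seen and given without a test. Genes above background on every KO-labelled and C2C12 array with a position in build mm8 numbered 13001, of which 60 (0.462%) were called higher and 45 (0.346%) lower, and 257 windows of 5 Mb held at least 20 of them. The median difference lay within 0.2 of 0 in 233 windows (90.7%). In 7 windows it was 0.4 or more, 6 of them on chromosome 4, and in 1 it was -0.4 or less, the last window of chromosome 2.

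**Figure D4:**
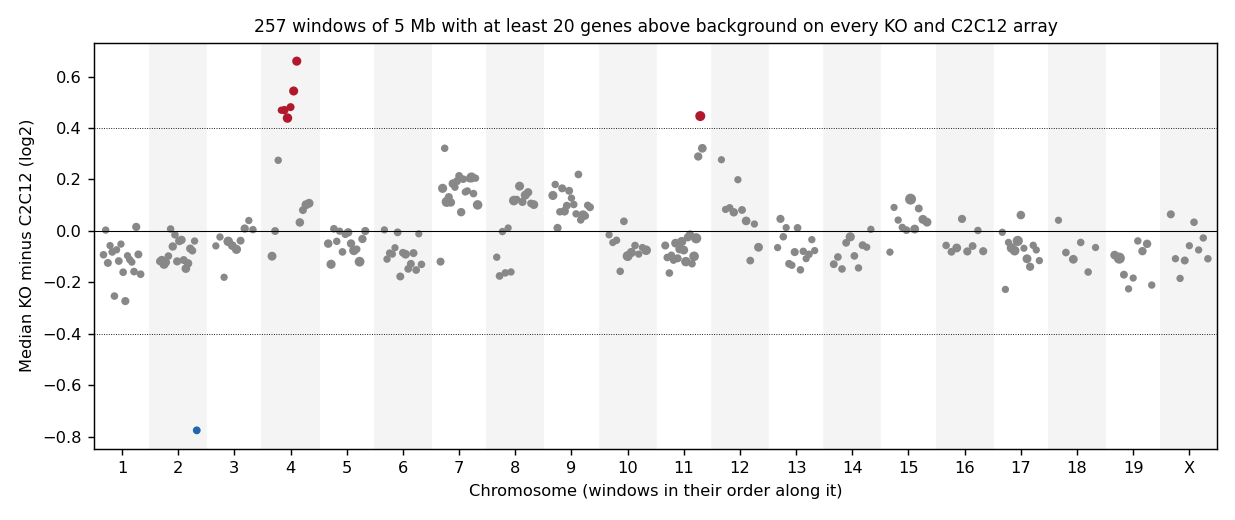
Each point is a window of 5 Mb, in order along each mouse chromosome on the x axis, with the median log2 difference KO-labelled minus C2C12 on the y axis; point size grows with the number of genes and dotted lines mark 0.4 and -0.4. The end of chromosome 2 lies lowest at -0.77, and windows of chromosome 4 reach 0.66.

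On chromosome 2 the last window, from 180000001 on, held 34 genes with a median of -0.77, and 85.3% lay below 0. All 3 KO-labelled samples had it, with medians of -0.80, -0.62 and -0.71 from the C2C12 mean in ventricle, aorta and atrium, while the C2C12 samples differed by -0.06. The slide-blocked median was -0.67 and that of KO-labelled minus WT was -0.94, and the 974 genes of the chromosome before the window had a median of -0.09. The lower values began at an edge. The 8 genes from Mtg2 to Ogfr (180014879 to 180524686) had a median of -0.05 and no call. From Dido1 on (180587789 to 181876255) 26 genes had a median of -0.88, a size near a 2-fold lower level, with 96.2% below 0 and 10 called: Gid8, Arfgap1, Ppdpf, Gmeb2, Rtel1, Zgpat, Tpd52l2, Dnajc5, Zfp512b and Prpf6. Whether these 10 share a function was not tested. Arfgap1, a regulator of Golgi transport, read -0.19, -0.18 and -0.17 in KO ventricle, aorta and atrium against 0.90 and 1.12 (difference -1.19, SE 0.15, limma adjusted p = 0.0182). Prpf6, a splicing factor, read 2.91, 2.93 and 2.85 against 3.77 and 3.83 (difference -0.90, SE 0.12, adjusted p = 0.0221). In both the 3 KO-labelled samples stood close together, and they stood apart from C2C12 as in every called gene. The edge was placed after the values were seen.

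**Figure D5:**
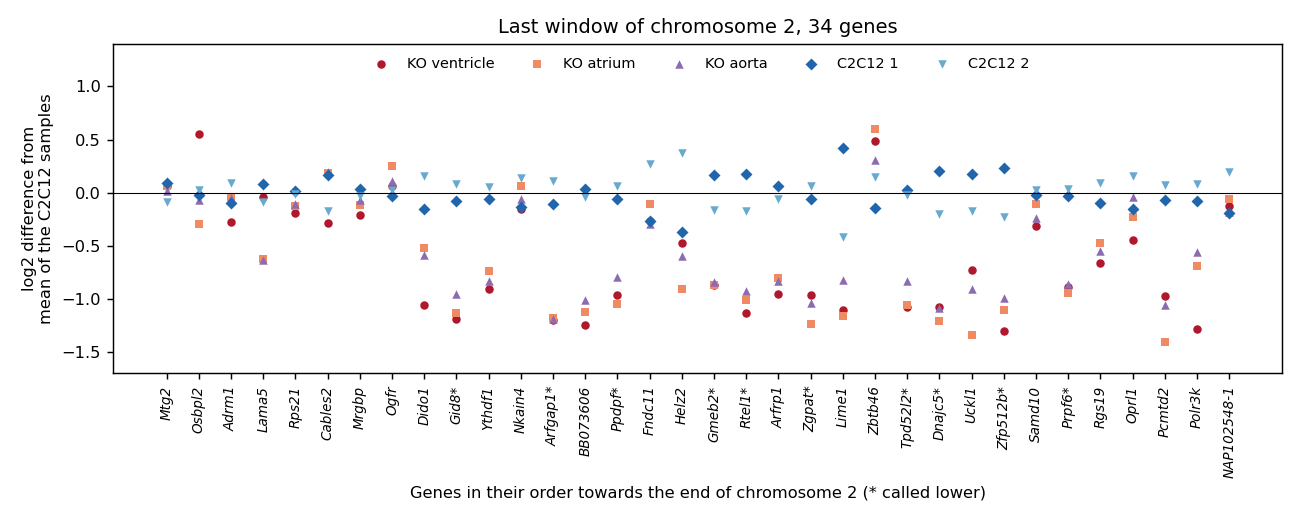
The 34 genes of the last window of chromosome 2 are in their order along the x axis, and the y axis gives each sample's log2 difference from the mean of the C2C12 samples; symbols are samples and asterisks mark the 10 genes called lower. The first 8 genes lie around 0, and from Dido1 on most genes lie near -0.88 in all 3 KO-labelled samples.

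On chromosome 4 the stretch from 55000001 to 135000000 held 436 genes with a median of 0.48, and 87.8% lay above 0. The medians were 0.45, 0.49 and 0.52 in KO ventricle, aorta and atrium. The 189 genes before it had a median of -0.06 and the 215 after it 0.07. The median of KO-labelled minus WT was 0.19 in the stretch, -0.24 before it and 0.40 after it. Against WT the stretch thus did not stand out from both sides, unlike the end of chromosome 2. Within the stretch 5 genes were called higher and 1 lower, so the shift was wide and small: Gmeb1, a modulator of glucocorticoid response elements, was higher by 0.93 (SE 0.13, adjusted p = 0.0256) and Ppp1r8, a nuclear inhibitor of protein phosphatase, by 0.79 (SE 0.14, adjusted p = 0.0466). The end of chromosome 11 from 105000001 on held 211 genes with a median of 0.36 and 83.9% above 0, against -0.08 for the 869 genes before it. Here too the KO-labelled samples were alike, with medians of 0.34, 0.37 and 0.35. The genome content of the cells was not measured, and the cause of these shifts was not tested.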

How the data were processed

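RNA of 11 mouse samples was hybridised to Agilent 1-colour arrays. The deposited spot intensity values are the output of Agilent Feature Extraction 9.5.3.1 (submitters' processing notes). Per the file headers, that software subtracted background, removed spatial trends and replaced signals near background with surrogates, without scaling between arrays. The deposited series table holds log2 values that matched log2 of the mean processed signal within 0.01 for 99.7 to 99.8% of probes, and it served as an alternative.

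Each array had 45018 spots. The 1639 control spots and 39 to 120 spots marked as outliers were left out, and 0 were saturated. Of 41174 probes 41121 were kept. Names were updated through a RefSeq table of GRCm38.p6 by accession (24348 probes), symbol (6293) or synonym (2419), and 8061 kept the scanner's name. Positions of probes are from the array design (mm8, per the file headers).

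Log2 processed signal minus the array's 75th percentile was averaged over near-identical arrays. The probe with the highest mean stood for each gene among probes that were well above background on 3 or more of the 8 arrays of these groups. All 8 samples were fitted with limma 3.58.1 (lmFit, eBayes) in R 4.3.3, and Benjamini-Hochberg adjusted p under 0.05 over 15134 genes was called. Every adjusted p comes from that fit or from an alternative named beside it. Slide-blocked values add the slide to the model. Python 3.11.15 with pandas 2.3.3, numpy 2.4.6 and matplotlib 3.10.9 made the tables and plots. In data simulated for this comparison on 15134 genes, 22% of 100 genes changed by 1 and 64% of 100 changed by 2 (log2) were called with the right sign, beside 4 false calls.

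Named genes were the 15 largest calls in each direction above background on all 8 arrays, the 10 largest bounds in each direction, anchor genes and up to 3 called members in each direction of 34 gene lists (607 genes), the 10 widest ranges over KO-labelled samples among genes above background on all 5 of their arrays, and all Sgcb probes. Genes outside this rule were chosen after their values were seen. They were Myh2, Chrng, Tgfbi, Cd14, Flt1, Msln, Stmn2, Zfy1, Hoxc13, Mtap, Fzd3, Xlr, Gpat2, 1700001F09Rik and Slc16a7. The others were those of the list of calls kept in every leave-out, and those of the chromosome stretches and of the closing observations. The comparison, the joining of arrays, the gene lists and the rule were chosen with earlier results of these data known. Some genes are not reported here.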

Additional observations from a re-analysis of the deposited data

How the results depend on the processing

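The counts of calls were the least stable results. Against 106 genes higher and 96 lower, normexp background correction gave 33 and 16, no filter on dim probes 57 and 42, a filter for probes above background on every KO-labelled and C2C12 array 44 and 27, every array as its own sample 896 and 794, the slide block 15 and 10, and each of slide 1 and slide 3 alone 0 and 0. Leaving out 1 sample gave 10 to 79 higher and 9 to 77 lower, with the lowest counts without C2C12 replicate 1. Fewer samples or more genes tested are built into the leave-outs, the single-slide fits and the unfiltered fit. A single slide holds 1 C2C12 array, so the single-slide counts say nothing about the stability of the calls. The cause of the other changes was not tested. Median scaling, quantile normalization, the deposited table, the mean over probes, a filter over all 11 arrays and a fit without WT gave counts within 1.5 times. Of 59 called genes among the 138 named, 24 stayed called with normexp, 38 without WT, 13 with the slide block and 10 in every leave-out. Of the other 79, 21 changed sign in some setting and 11 were called in some. The medians of 19 of the 34 lists changed sign in some setting, but that of the sarcomere list ran from -3.99 to -1.97. No analysis paired by mouse or culture was possible because the labels carry no replicate numbers. The medians of the named stretches of chromosomes 2, 4 and 11 with the slide block or quantile normalization, alternatives chosen after seeing the data, kept their direction. Depth of signal limits the 31 higher and 33 lower calls whose dimmer group was not above background, and 2 C2C12 samples limit all.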

Other observations

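The stretch of chromosome 14 from 40000001 to 44000000 (mm8), chosen after the calls were seen, held 12 tested genes, of which 6 were above background on every KO-labelled and C2C12 array. Among these 6 there were 4 called higher in the KO-labelled samples, by 2.01 to 2.87. Of 5 further calls, 4 had no C2C12 array above background and 1700001F09Rik had 1, so they passed the filter on dim probes through the arrays where they are high. The calls included BC061237, at -2.77, -2.88 and -3.12 in KO ventricle, aorta and atrium against -7.06 and -7.40 in C2C12 (at least 6.10-fold, limma adjusted p = 0.00144), and 1700049E17Rik1, at 1.14, 1.32 and 1.25 against -0.91 and -0.63 (adjusted p = 0.0178). The groups overlapped in Ang6, a ribonuclease of the angiogenin family, at -4.38, -2.90 and -3.05 against -3.52 and -3.47. Several of these transcripts are near-identical copies of 1 family, so the probes may read each other's transcripts, the calls are not independent, and the number of active copies is uncertain.

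Some called genes code for regulators of chromatin and transcription and were named after their values were seen. Dnmt3a, a DNA methyltransferase, read -1.52, -1.42 and -1.42 in KO ventricle, aorta and atrium against -2.75 and -2.64 (difference 1.24, SE 0.20, adjusted p = 0.0389, slide-blocked adjusted p = 0.196). Prdm8, a repressor of the PR domain family, was higher by 2.88 (adjusted p = 0.0228) and Mkx, the tendon homeobox factor mohawk, by 3.43 (adjusted p = 0.0362). A second Prdm8 probe differed by 1.56 and was not called (limma adjusted p = 0.224). Ebf1, a factor of B cell and fat development, was lower by 1.05 on the log2 scale (adjusted p = 0.0407). Like all 202 called genes, these 4 had the 3 KO-labelled samples on 1 side of both C2C12 samples. None of the 4 was called with the slide as a block.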
